A study of Mus musculus with 9 samples.

Results

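Wnt ligands, Frizzled and other Wnt receptors, secreted inhibitors and the main intracellular regulators of the pathway were followed in mouse neuroblastoma cells. The cells were labelled as overexpressing Tcof1, with Tcof1 knocked down, or wildtype. Members were the probe sets with exactly 1 gene symbol in the platform annotation whose symbol starts with Wnt, Fzd, Sfrp, Dkk or Dvl, or is one of a short list of receptors and regulators (Lrp5, Lrp6, Ror1, Ror2, Wif1, Axin1, Axin2, Apc, Ctnnb1, Gsk3b, Lef1, Tcf7, Tcf7l1 and Tcf7l2). The rule found 82 probe sets of 53 genes among 22626 probe sets (12393 named genes), and Tcf7 had no such probe set. The members were 23 probe sets of 19 ligands, 22 of 13 receptors, 14 of 10 secreted inhibitors, 16 of 8 cytoplasmic regulators and 7 of 3 nuclear factors. Dkkl1, a Dickkopf-like gene, entered with the inhibitors by its prefix.

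Wnt proteins are secreted lipid-modified ligands that bind Frizzled receptors at the cell surface. In the canonical branch, Frizzled and the co-receptors Lrp5 and Lrp6 act through Dishevelled to stop a complex of Axin, Apc and Gsk3 from marking beta-catenin for destruction, and beta-catenin then acts with Lef and Tcf factors on target genes. Other branches run through Ror receptors, calcium and small GTPases and guide cell polarity and movement. In the neural crest, the embryonic source of sympathetic neurons and neuroblastoma, Wnt signals are known for their part in induction and migration.

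The cells were N1E-115, a mouse neuroblastoma line, and total RNA was measured on 9 arrays of 1 colour. There were 3 arrays of cells overexpressing mouse Tcof1, 3 of cells labelled as Tcof1 knockdown and 3 of wildtype cells. Each group was lettered A, B and C. Tcof1 encodes treacle, a nucleolar protein of ribosomal RNA synthesis that is mutated in Treacher Collins syndrome. The means of raising and lowering Tcof1, any cloning of the cells and the origin of the lettered arrays (separate cultures or not) are not stated. All p-values thus rest on the spread among these arrays, and that spread may be technical.

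Of the 3 Tcof1 probe sets, 1 was higher in overexpressing than in wildtype cells past the threshold (log2 fold change 0.87 ± 0.21, limma adjusted p = 0.0241) and 0 passed for knockdown against wildtype, where the values were -0.40, -0.22 and 0.06 (unadjusted p under 0.05 for 0 of them). A fall of Tcof1 in the cells labelled knockdown was therefore not shown by this array. On the set at -0.22 the knockdown arrays (134.8, 112.1 and 133) lay below the wildtype arrays (143.1, 156.3 and 149.8). On the other sets they overlapped. In the order given above, overexpressing over knockdown was 1.03, 1.09 and 0.33 (limma adjusted p = 0.0137, 0.0116 and 0.267). Array medians lay between 164.1 and 185.95. Correlations were 0.972 to 0.978 between arrays of 1 group and 0.956 to 0.978 between arrays of different groups, so these ranges overlapped. Of 19 measured neuroblast and sympathetic neuron markers, 16 lay above the array-wide median, among them Th, Dbh and Phox2a. Their summed intensity was 48484 to 54274 in overexpressing, 59982 to 65640 in knockdown and 58613 to 62435 in wildtype cells, with 1 marker higher and 4 lower past the threshold in overexpressing against wildtype cells and 0 higher and 6 lower against knockdown cells. For fibroblasts 3 of 11 markers and for glia 3 of 7 lay above that median, with summed intensities of 19116 to 20356 and 6344 to 7862 in overexpressing, 19253 to 21926 and 7699 to 7857 in knockdown, and 20193 to 20326 and 7383 to 10027 in wildtype cells. For blood cells 2 of 7 markers did, and that list summed to 818.8 to 858.4 in overexpressing, 1349 to 1419 in knockdown and 1478 to 1568 in wildtype cells. Its brightest marker Cd74 averaged 373.2, 791.7 and 928.3 in the same order, and its defining marker Ptprc 17.6, 16.9 and 22.7. The fibroblast sum was mostly Vim (17160 in overexpressing, 16118 in knockdown and 16306 in wildtype cells), while Fn1 averaged 2112, 3483 and 3248 and Pdgfrb 22.5, 110.4 and 145.9 in the same order. The glia sum was mostly Pmp22 (6579 in overexpressing, 6781 in knockdown and 7617 in wildtype cells). Past the threshold, 2 fibroblast, 1 glia and 1 blood marker were lower in overexpressing than in wildtype cells, and 2, 1 and 2 lower than in knockdown cells, with 0 higher in either. Of all 12393 genes, 5.04% were higher and 6.22% lower in overexpressing than in wildtype cells. Against knockdown cells these shares were 3.57% and 5.25%. The part of these lists in the Wnt results was not tested.

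Intensities are linear array units scaled by the authors, and log2 fold changes ± SE and 95% intervals come from limma on log2(intensity + 16), a scale that understates changes of dim probe sets. A probe set passed when its Benjamini-Hochberg adjusted p over all 22626 probe sets was under 0.05, and the intervals are not adjusted. Fold changes compare a probe set only with itself between groups. Brightness, as an order of probe sets by mean intensity over the 9 arrays or as a side of the array-wide median, says how well a probe set read and not how abundant its transcript was. In such bulk RNA, fewer cells of a type and less RNA per cell cannot be told apart.

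In Tcof1-overexpressing cells, 5 Wnt genes moved against wildtype. The ligand Wnt11, the receptor Fzd7, the secreted Dkk3 and the Dishevelled gene Dvl1 fell, and the ligand Wnt5a rose. Dkk3 and Dvl1 fell on both of their probe sets, whereas Fzd7 and Wnt5a passed on 1 of 2. In all, 7 of 82 Wnt probe sets passed, which is 8.54% of them against 9.59% of all probe sets. There was 1 that rose (1.22%, against 4.52% of all probe sets) and 6 that fell (7.32%, against 5.07%), so the share of Wnt probe sets that moved was near that of the array as a whole. The median log2 fold change was -0.04 over the Wnt probe sets and -0.02 over all probe sets. It was 0.004 without overexpressing array A and 0.01 without wildtype array B.

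**Figure D1:**
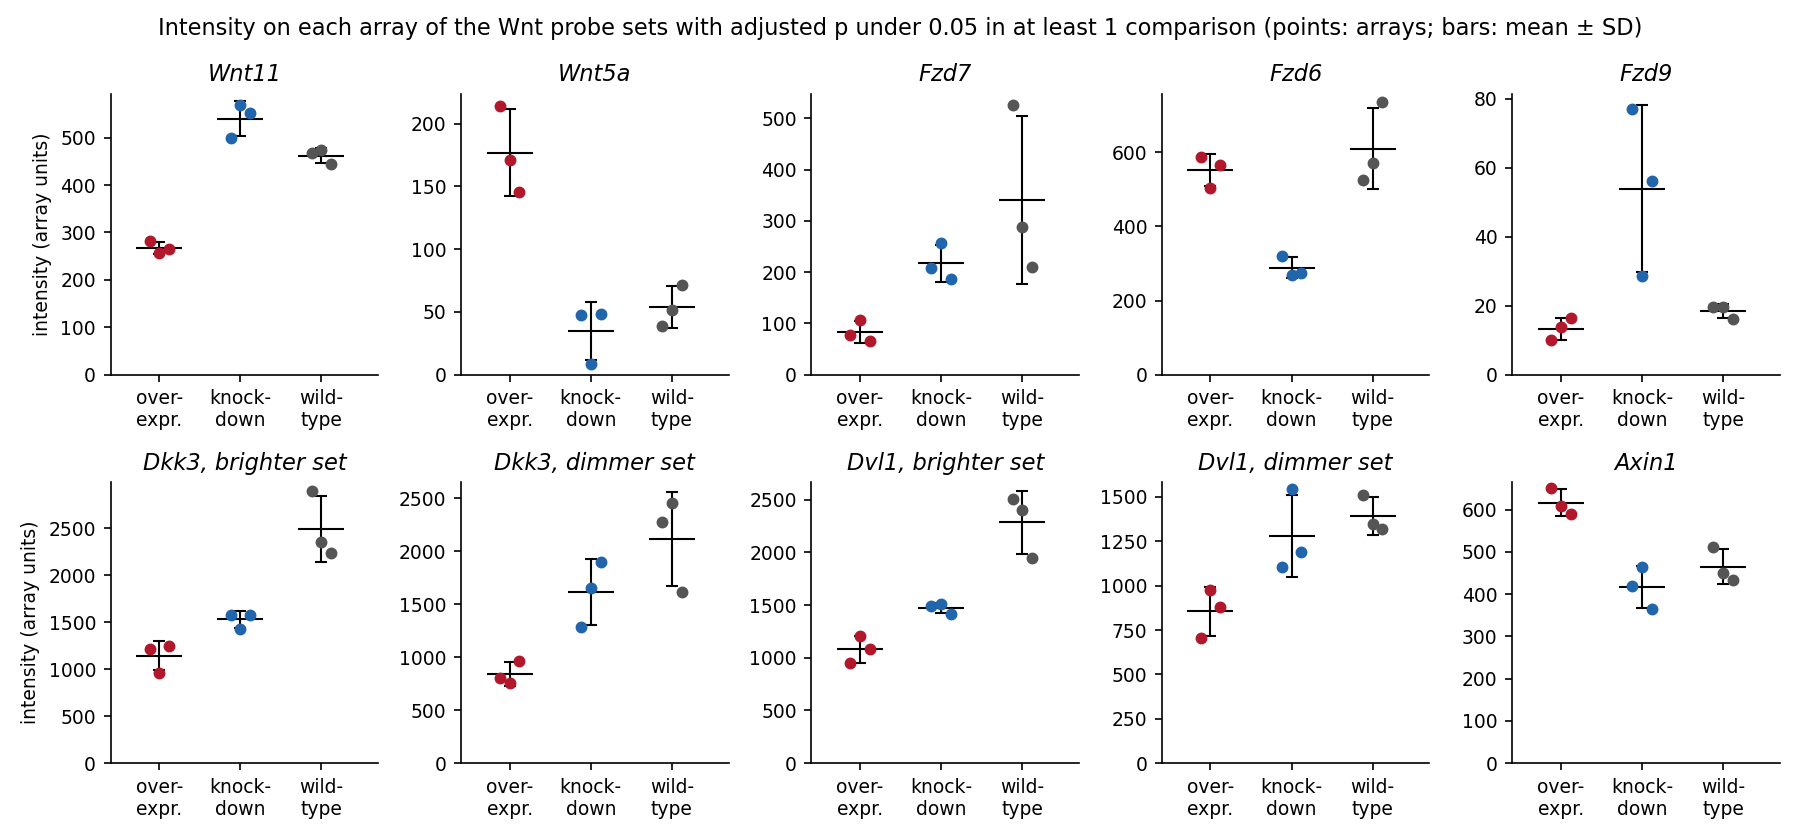
Intensity in array units (vertical axes, linear, from 0) on each array for the 10 Wnt probe sets that passed in at least 1 comparison, with overexpressing, knockdown and wildtype cells from left to right, points for arrays and bars for mean ± SD (n = 3). All Wnt11 arrays of overexpressing cells lie between 256.1 and 281.8, below every other array, and for the brighter Dkk3 and Dvl1 probe sets the 3 groups do not overlap.

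Promoters of 3 of the genes that fell together in overexpressing cells, Wnt11, Dvl1 and Fzd7, are shown first, from 250 bases before to 50 after the start, and that of Dkk1, an inhibitor that did not pass, is set beside them. The promoter table used here was not complete, and the promoters of Dkk3, Wnt5a, Fzd6 and Axin1 were not analysed here. Sequences are from RefSeq on GRCm38.p6, read 5′ to 3′ in the direction of the gene. Capitals mark the word CTTTGAT or CTTTGAA on either strand, the core that Lef and Tcf factors bind.
Wnt11: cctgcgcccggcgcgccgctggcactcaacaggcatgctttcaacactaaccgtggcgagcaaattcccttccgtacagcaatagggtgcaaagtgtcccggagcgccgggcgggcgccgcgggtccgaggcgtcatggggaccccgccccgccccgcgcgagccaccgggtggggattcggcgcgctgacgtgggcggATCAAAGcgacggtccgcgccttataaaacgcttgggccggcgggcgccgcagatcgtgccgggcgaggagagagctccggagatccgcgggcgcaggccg
Dvl1: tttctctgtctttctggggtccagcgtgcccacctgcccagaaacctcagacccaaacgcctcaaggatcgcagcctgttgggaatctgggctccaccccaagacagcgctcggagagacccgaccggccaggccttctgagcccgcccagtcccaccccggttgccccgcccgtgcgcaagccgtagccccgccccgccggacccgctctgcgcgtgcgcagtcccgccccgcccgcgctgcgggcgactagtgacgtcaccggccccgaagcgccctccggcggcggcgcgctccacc
Fzd7: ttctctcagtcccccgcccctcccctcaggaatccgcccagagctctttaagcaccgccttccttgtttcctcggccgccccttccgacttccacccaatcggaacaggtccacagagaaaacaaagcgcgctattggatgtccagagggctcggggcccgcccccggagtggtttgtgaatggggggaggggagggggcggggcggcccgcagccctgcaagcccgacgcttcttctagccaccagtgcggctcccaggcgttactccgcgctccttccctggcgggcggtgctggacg
Dkk1: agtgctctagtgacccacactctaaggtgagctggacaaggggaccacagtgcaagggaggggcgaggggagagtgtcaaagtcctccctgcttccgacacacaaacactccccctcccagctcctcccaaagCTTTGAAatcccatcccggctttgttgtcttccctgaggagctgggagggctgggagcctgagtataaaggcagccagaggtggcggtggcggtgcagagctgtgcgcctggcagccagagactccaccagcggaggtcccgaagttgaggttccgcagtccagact
These lie at chr7:98834862-98835161 on the plus strand for Wnt11, chr4:155847152-155847451 on the plus strand for Dvl1, chr1:59481897-59482196 on the plus strand for Fzd7 and chr19:30549447-30549746 on the minus strand for Dkk1. Wnt11 has the word as ATCAAAG, its reverse complement, with its first base at -51 from the start, and Dkk1 has it as CTTTGAA at -117, while Dvl1 and Fzd7 do not have it in these windows. Their GC content is 71.3% in Wnt11, 72.3% in Dvl1, 66.7% in Fzd7 and 60.7% in Dkk1. The table used gave 45 promoters for 37 of the 53 Wnt genes, of which 3 (6.67%) hold the word, those of Wnt11, Dkk1 and Wnt5b, against 2842 of 32851 promoters of the table (8.65%). A second Wnt11 promoter in the table holds none, and a match in these letters is a description and not a binding site.

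Among the ligands, Wnt11 gave the tightest separation. This ligand acts mainly in the non-canonical branch and in cell movement. Its intensity was 281.8, 256.1 and 265.8 in overexpressing, 498.3, 569.9 and 551.6 in knockdown and 466.8, 474.8 and 445.0 in wildtype cells. All 3 overexpressing arrays lay below the other 6, and the 3 knockdown arrays lay above the 3 wildtype arrays. Wnt11 averaged 267.9 ± 13.0 in overexpressing and 462.2 ± 15.4 in wildtype cells (SD, n = 3 each), a log2 fold change of -0.75 ± 0.11 (limma adjusted p = 0.00276). Against knockdown cells, which averaged 539.9 ± 37.2, the log2 fold change was -0.97 ± 0.11 (limma adjusted p = 0.0011). Both calls were kept under all 19 other settings tried. Knockdown over wildtype was 0.22 ± 0.11 with an interval of -0.03 to 0.47 and did not pass (limma adjusted p = 0.527).

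Wnt5a, the other ligand best known for non-canonical signalling, went the opposite way. Its brighter probe set read 213.8, 171.4 and 145.8 in overexpressing, 47.8, 8.3 and 48.7 in knockdown and 38.5, 51.9 and 71.6 in wildtype cells. Every overexpressing array lay above the other 6, while knockdown and wildtype arrays overlapped. The means were 177.0 ± 34.3 in overexpressing and 54.0 ± 16.6 in wildtype cells (SD, n = 3 each), and the log2 fold change was 1.48 ± 0.38 (limma adjusted p = 0.0349). Its dimmer probe set read 154.2, 128.6 and 100.6 in overexpressing, 56.2, 79.9 and 21.3 in knockdown and 38.9, 63.8 and 84.7 in wildtype cells, also without overlap between overexpressing and wildtype arrays. There the log2 fold change was 0.90 ± 0.37, with an interval of 0.09 to 1.71, and did not pass (limma adjusted p = 0.168). The call on the brighter probe set was lost with a pseudocount of 1 (limma adjusted p = 0.0915), with no mean-variance trend (0.0552), and without any of overexpressing arrays A, B or C or wildtype arrays A or B (0.0621 to 0.117). Against knockdown the brighter set rose by 2.04 ± 0.38 (limma adjusted p = 0.0111). That value was 1.30 with a pseudocount of 64 and lost its call without overexpressing array A (adjusted p = 0.0503). The dimmer set, at 1.16 ± 0.37, did not pass against knockdown (limma adjusted p = 0.0855).

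The remaining ligands gave no call in any comparison (limma, Benjamini-Hochberg). Wnt7b, by its brighter probe set, read 362.6, 555.7 and 401.1 in overexpressing, 588.5, 622.1 and 372.1 in knockdown and 574.0, 438.5 and 385.8 in wildtype cells, with all groups overlapping. Its intervals were -0.58 to 0.41 for overexpressing and -0.34 to 0.65 for knockdown against wildtype. Wnt10a, a canonical ligand, read 121.1, 189.9 and 198.3 in overexpressing, 240.5, 213.5 and 155.3 in knockdown and 125.0, 131.2 and 148.7 in wildtype cells. The knockdown arrays of Wnt10a all lay above the wildtype ones, but at 0.52 ± 0.23 the difference did not pass (limma adjusted p = 0.455). The other 19 ligand probe sets, of 17 genes, had log2 fold changes of overexpressing over wildtype from -0.91 (Wnt1) to 0.90 (Wnt5a, dimmer set), and of knockdown over wildtype from -0.30 (Wnt3) to 0.58 (Wnt9a). Only 6 of the 23 ligand probe sets, those of Wnt2, Wnt6, Wnt7b, Wnt10a and Wnt11 and 1 of Wnt5a, exceeded the array-wide median of 175.2 array units in some group, so most ligand probe sets read in the range where the scale compresses changes.

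Fzd7 had the largest fall of the Wnt probe sets in overexpressing against wildtype cells. This Frizzled receptor serves both the canonical and the non-canonical branch. Its brighter probe set read 76.6, 107.4 and 66.0 in overexpressing, 207.3, 257.8 and 187.3 in knockdown and 525.5, 288.0 and 209.6 in wildtype cells. All overexpressing arrays lay below the other 6, and wildtype array A stood well above wildtype B and C. The means were 83.3 ± 21.5 in overexpressing and 341.0 ± 164.5 in wildtype cells (SD, n = 3 each), with a log2 fold change of -1.77 ± 0.30 (limma adjusted p = 0.00516) that was kept under all 19 other settings. The second Fzd7 probe set read 6.3 to 13.7 on all 9 arrays and showed no call (-0.05 ± 0.18). Against knockdown cells, which averaged 217.5 ± 36.3, the brighter set fell by 1.24 ± 0.30 on the log2 scale (limma adjusted p = 0.0329). That call was lost with a pseudocount of 64 (adjusted p = 0.0554), with no mean-variance trend (0.0641), and without overexpressing A or C, wildtype B or any 1 of the knockdown arrays (0.0526 to 0.108).

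Fzd6, a Frizzled known from planar cell polarity in hair patterning, was the Wnt gene nearest to a call for knockdown against wildtype. Its brighter probe set read 586.4, 503.4 and 565.0 in overexpressing, 321.3, 270.2 and 275.3 in knockdown and 525.3, 571.0 and 735.3 in wildtype cells. The 3 knockdown arrays lay below the other 6, and overexpressing and wildtype arrays overlapped. Knockdown over wildtype was -1.03 ± 0.14 with an interval of -1.35 to -0.71, which did not pass after adjustment (limma adjusted p = 0.057). The adjusted p was 0.0272 when the dimmest 40% of probe sets were left out, 0.0408 with array weights and 0.0346 without wildtype array C. Overexpressing over knockdown passed, at 0.90 ± 0.14 (limma adjusted p = 0.00564), and did so under all 19 other settings. Overexpressing over wildtype was -0.13 ± 0.14, with an interval of -0.45 to 0.19 (limma adjusted p = 0.684). The dimmer Fzd6 probe set did not share the low knockdown values, with 148.0, 173.5 and 149.9 in overexpressing, 149.6, 120.5 and 162.1 in knockdown and 157.6, 146.5 and 182.2 in wildtype cells (knockdown over wildtype -0.16 ± 0.19, limma adjusted p = 0.817).

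Fzd9, another Frizzled receptor, was dim throughout and passed only between overexpressing and knockdown cells. Its readings were 10, 13.7 and 16.3 in overexpressing, 76.9, 28.6 and 56.1 in knockdown and 19.7, 19.6 and 16 in wildtype cells. The knockdown arrays lay above the other 6, and their own range was wide. Overexpressing over knockdown was -1.19 ± 0.27 (limma adjusted p = 0.0253), -1.85 with a pseudocount of 1 and -0.59 with a pseudocount of 64. The call was lost without any 1 overexpressing array or without knockdown A or C (adjusted p of 0.0515 to 0.0978), and knockdown over wildtype, 0.96 ± 0.27, did not pass (limma adjusted p = 0.261).

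Of the 3 probe sets of Fzd2, a receptor of both branches, the brightest by the mean over 9 arrays read 464.3, 423.1 and 540.6 in overexpressing, 649.3, 577.1 and 567.6 in knockdown and 338.0, 442.6 and 623.1 in wildtype cells. A second Fzd2 set read 346.0, 353.9 and 405.5 in overexpressing, 534.4, 496.2 and 459.8 in knockdown and 319.7, 316.1 and 469.2 in wildtype cells. On both sets the knockdown arrays lay above the overexpressing ones and overlapped the wildtype ones. The dimmest Fzd2 set went the other way, with 84.1, 68.7 and 74.8 in overexpressing cells above 54.4, 55.1 and 57.0 in knockdown cells, and 51.7, 85.7 and 41.3 in wildtype cells (overexpressing over knockdown 0.36 ± 0.26, limma adjusted p = 0.466). Knockdown over wildtype was 0.38 ± 0.19 (limma adjusted p = 0.503) and 0.44 ± 0.16 (limma adjusted p = 0.359) on the brighter sets and -0.04 ± 0.26 on the dimmest. Fzd3, a polarity receptor of growing axons, had 4 probe sets. The one with the smallest p for overexpressing over wildtype was at 0.65 ± 0.30 (limma adjusted p = 0.226). It read 202.0, 322.1 and 265.0 in overexpressing, 203.2, 300.6 and 170.1 in knockdown and 98.5, 175.7 and 226.5 in wildtype cells. Its brighter sets gave 0.08 ± 0.14 and 0.22 ± 0.25 and the dimmest 0.07 ± 0.17 (limma adjusted p = 0.832, 0.704 and 0.889). The other 16 receptor probe sets, of 12 genes, lay between -0.42 and 0.78 for overexpressing over wildtype, and both ends belonged to probe sets of the co-receptor Lrp6. For knockdown over wildtype they lay between -0.42 (Fzd4) and 0.40 (Lrp5). Ror2, the receptor through which Wnt5a acts in non-canonical signalling, read 3.4 to 24.4 over the 9 arrays, and Ror1 read 59.3 to 142.1.

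Of the secreted inhibitors, Dkk3 fell in overexpressing cells on both of its probe sets. Dkk3 is a divergent Dickkopf protein that, unlike Dkk1, is not known as a plain blocker of Lrp5 and Lrp6. The brighter set read 1213.9, 965.2 and 1248.0 in overexpressing, 1581.7, 1430.8 and 1579.0 in knockdown and 2897.2, 2358.8 and 2233.5 in wildtype cells. The 3 groups did not overlap, with overexpressing cells lowest and wildtype cells highest. Overexpressing cells averaged 1142 ± 154 and wildtype cells 2497 ± 353 (SD, n = 3 each), with a log2 fold change of -1.12 ± 0.12 (limma adjusted p = 0.000669). The dimmer set read 803.6, 757.8 and 967.3 in overexpressing, 1285.6, 1656.8 and 1899.9 in knockdown and 2276.5, 2459.8 and 1611.5 in wildtype cells, at -1.30 ± 0.18 (limma adjusted p = 0.0018). On this set overexpressing arrays again lay below all others, while knockdown and wildtype arrays overlapped. Both falls were kept under all 19 other settings.

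Between knockdown and wildtype cells, Dkk3 was -0.69 ± 0.12 on the brighter set, with an interval of -0.97 to -0.42 (limma adjusted p = 0.0952), and -0.38 ± 0.18 on the dimmer set (limma adjusted p = 0.479). The brighter set passed without wildtype array C (adjusted p = 0.0487) and when the dimmest 40% of probe sets were left out (0.0491). Overexpressing over knockdown was -0.42 ± 0.12 on the brighter set (limma adjusted p = 0.0656) and -0.91 ± 0.18 on the dimmer set (limma adjusted p = 0.0134). The call on the dimmer set was lost with no mean-variance trend (adjusted p = 0.0504) and without overexpressing A or B or knockdown C (0.0508 to 0.0536).

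Dkk1, which blocks the canonical branch by binding Lrp5 and Lrp6, was bright on all arrays and differed little. It read 4884.4, 5444.5 and 4910.2 in overexpressing, 5265.4, 5048.9 and 5538.5 in knockdown and 5443.1, 5460.6 and 5332.9 in wildtype cells, with all groups overlapping. Its intervals were -0.26 to 0.08 for overexpressing over wildtype (limma adjusted p = 0.562) and -0.21 to 0.14 for knockdown over wildtype (limma adjusted p = 0.908), so larger shifts of this probe set lay outside its unadjusted 95% intervals. Sfrp4, a secreted protein with a Frizzled-like Wnt-binding domain, read 307.2, 403.6 and 291.5 in overexpressing, 539.1, 551.3 and 370.4 in knockdown and 363.7, 488.0 and 451.4 in wildtype cells, where overexpressing over wildtype was -0.37 ± 0.19 (limma adjusted p = 0.285). The brightest probe set of Sfrp1, of the same family, read 139.7, 236.1 and 244.6 in overexpressing, 266.7, 210.2 and 61.7 in knockdown and 175.6, 447.2 and 286.8 in wildtype cells, a spread within groups that left its intervals at -1.49 to 0.56 for overexpressing and -1.84 to 0.21 for knockdown over wildtype. The other 9 inhibitor probe sets, of 7 genes, had mean intensities of 3.12 to 106.2 and log2 fold changes from -0.31 to 0.28 for overexpressing and from -0.19 (Sfrp5) to 0.999 (Sfrp1) for knockdown over wildtype, none past the threshold.

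In the cytoplasm, Dvl1 fell in overexpressing cells on both of its probe sets. Dvl1 is a Dishevelled protein, which relays the signal from Frizzled into every branch of the pathway. The brighter set read 949.1, 1206.6 and 1085.7 in overexpressing, 1491.3, 1513.8 and 1417.8 in knockdown and 2510.8, 2402.6 and 1946.4 in wildtype cells. As for the brighter Dkk3 set, the groups did not overlap and knockdown cells lay between the other two. Dvl1 averaged 1080 ± 129 in overexpressing and 2287 ± 300 in wildtype cells (SD, n = 3 each), a log2 fold change of -1.07 ± 0.12 (limma adjusted p = 0.000668) that was kept under all 19 other settings. The dimmer set read 704.1, 978.2 and 881.9 in overexpressing, 1107.1, 1542.2 and 1188.4 in knockdown and 1512.1, 1348.3 and 1317.2 in wildtype cells, at -0.70 ± 0.15 (limma adjusted p = 0.0135). Knockdown and wildtype arrays overlapped on the dimmer set, and its call was lost with no mean-variance trend and without overexpressing A or wildtype A (adjusted p of 0.05 to 0.0524).

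Knockdown over wildtype was -0.62 ± 0.12 for the brighter Dvl1 set, with an interval of -0.88 to -0.36 (limma adjusted p = 0.1), and -0.13 ± 0.15 for the dimmer one (limma adjusted p = 0.795). The brighter set passed without wildtype array C (adjusted p = 0.0346). Overexpressing over knockdown passed on both sets, at -0.45 ± 0.12 (limma adjusted p = 0.042) and -0.57 ± 0.15 (limma adjusted p = 0.0402). Neither passed with a common array median, with no mean-variance trend, with a further 1.5-fold limit, or without overexpressing A or C, wildtype B or knockdown B or C. The brighter set also lost its call without knockdown A. Across the 6 calls of lower intensity in overexpressing against wildtype cells, the knockdown mean lay between the other 2 group means in 5, with Wnt11 the exception. These sets were picked for low overexpressing and high wildtype values, so a knockdown mean would often lie between them anyway. Dkk3 and Dvl1 count on both of their sets, and whether the order is more frequent than over the whole array was not tested.

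Axin1, the scaffold of the destruction complex, passed only between overexpressing and knockdown cells. Its brighter probe set read 650.9, 608.2 and 589.2 in overexpressing, 419.0, 465.1 and 365.3 in knockdown and 512.0, 448.8 and 433.3 in wildtype cells. The overexpressing arrays lay above the other 6. Overexpressing over knockdown was 0.55 ± 0.12 (limma adjusted p = 0.0231), and overexpressing over wildtype, at 0.40 ± 0.12, did not pass (limma adjusted p = 0.0696). The first of these lost its call in 7 of 19 other settings, namely no mean-variance trend, a further 1.5-fold limit, any 1 overexpressing array left out and knockdown A or C left out. The second passed with array weights (adjusted p = 0.0333) and without the dimmest 40% of probe sets (0.0482). The dimmer Axin1 set read 294.6, 357.6 and 297.4 in overexpressing, 239.6, 304.9 and 214.1 in knockdown and 221.1, 249.4 and 248.6 in wildtype cells. It gave 0.38 ± 0.17 for overexpressing over wildtype (limma adjusted p = 0.204). For overexpressing over knockdown it gave 0.32 ± 0.17 with overlapping arrays and did not pass (limma adjusted p = 0.296).

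Ctnnb1, which encodes beta-catenin itself, was bright and differed little between groups. Its brightest probe set read 6398.6, 5671.2 and 6109.9 in overexpressing, 5930.4, 5668.7 and 6162.9 in knockdown and 6243.0, 5880.7 and 6693.7 in wildtype cells, with intervals of -0.23 to 0.14 for overexpressing and -0.27 to 0.10 for knockdown over wildtype. Gsk3b, the kinase that marks beta-catenin, read 429.0, 451.2 and 392.9 in overexpressing, 347.8, 454.3 and 402.5 in knockdown and 518.1, 534.8 and 533.6 in wildtype cells. All arrays of both altered groups lay below the 3 wildtype arrays, but neither difference passed, at -0.31 ± 0.12 for overexpressing (limma adjusted p = 0.16) and -0.39 ± 0.12 for knockdown (limma adjusted p = 0.301). Axin2, a destruction complex member whose transcript is a common readout of canonical activity, read 162.4, 226.0 and 195.7 in overexpressing, 174.3, 161.1 and 180.1 in knockdown and 145.1, 208.5 and 165.2 in wildtype cells on its brighter set, with intervals of -0.27 to 0.59 for overexpressing and -0.43 to 0.44 for knockdown over wildtype. The other 10 cytoplasmic probe sets, which include this one, had log2 fold changes of -0.09 to 0.79 for overexpressing over wildtype and -0.60 to 0.48 for knockdown over wildtype. The upper end of the first range was Dvl3, a second Dishevelled gene, at 0.79 ± 0.31 (limma adjusted p = 0.148) with 87.8, 127.9 and 43.3 in overexpressing, 41.9, 32.4 and 34.4 in knockdown and 39.0, 38.4 and 40.7 in wildtype cells.

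The nuclear factors gave no call, and all 7 of their probe sets stayed below 175.2 array units, the array-wide median, in each group. Lef1, a DNA-binding partner of beta-catenin, read 83.4, 73.0 and 76.0 in overexpressing, 73.6, 69.5 and 89.7 in knockdown and 56.9, 58.0 and 45.6 in wildtype cells. Both altered groups lay above wildtype on every array, at 0.43 ± 0.22 each, with limma adjusted p of 0.286 for overexpressing and 0.519 for knockdown. Tcf7l1, chiefly a repressor among the Tcf factors, read 58.5, 163.8 and 85.0 in overexpressing, 148.6, 62.6 and 145.9 in knockdown and 49.1, 146.8 and 130.4 in wildtype cells on its brighter set, so that arrays of 1 group differed more than the groups did. The other 6 nuclear probe sets, Lef1 included, lay between -0.20 and 0.50 for overexpressing and between -0.07 and 0.81 for knockdown over wildtype, and all 4 ends belonged to Tcf7l2.

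**Figure D2:**
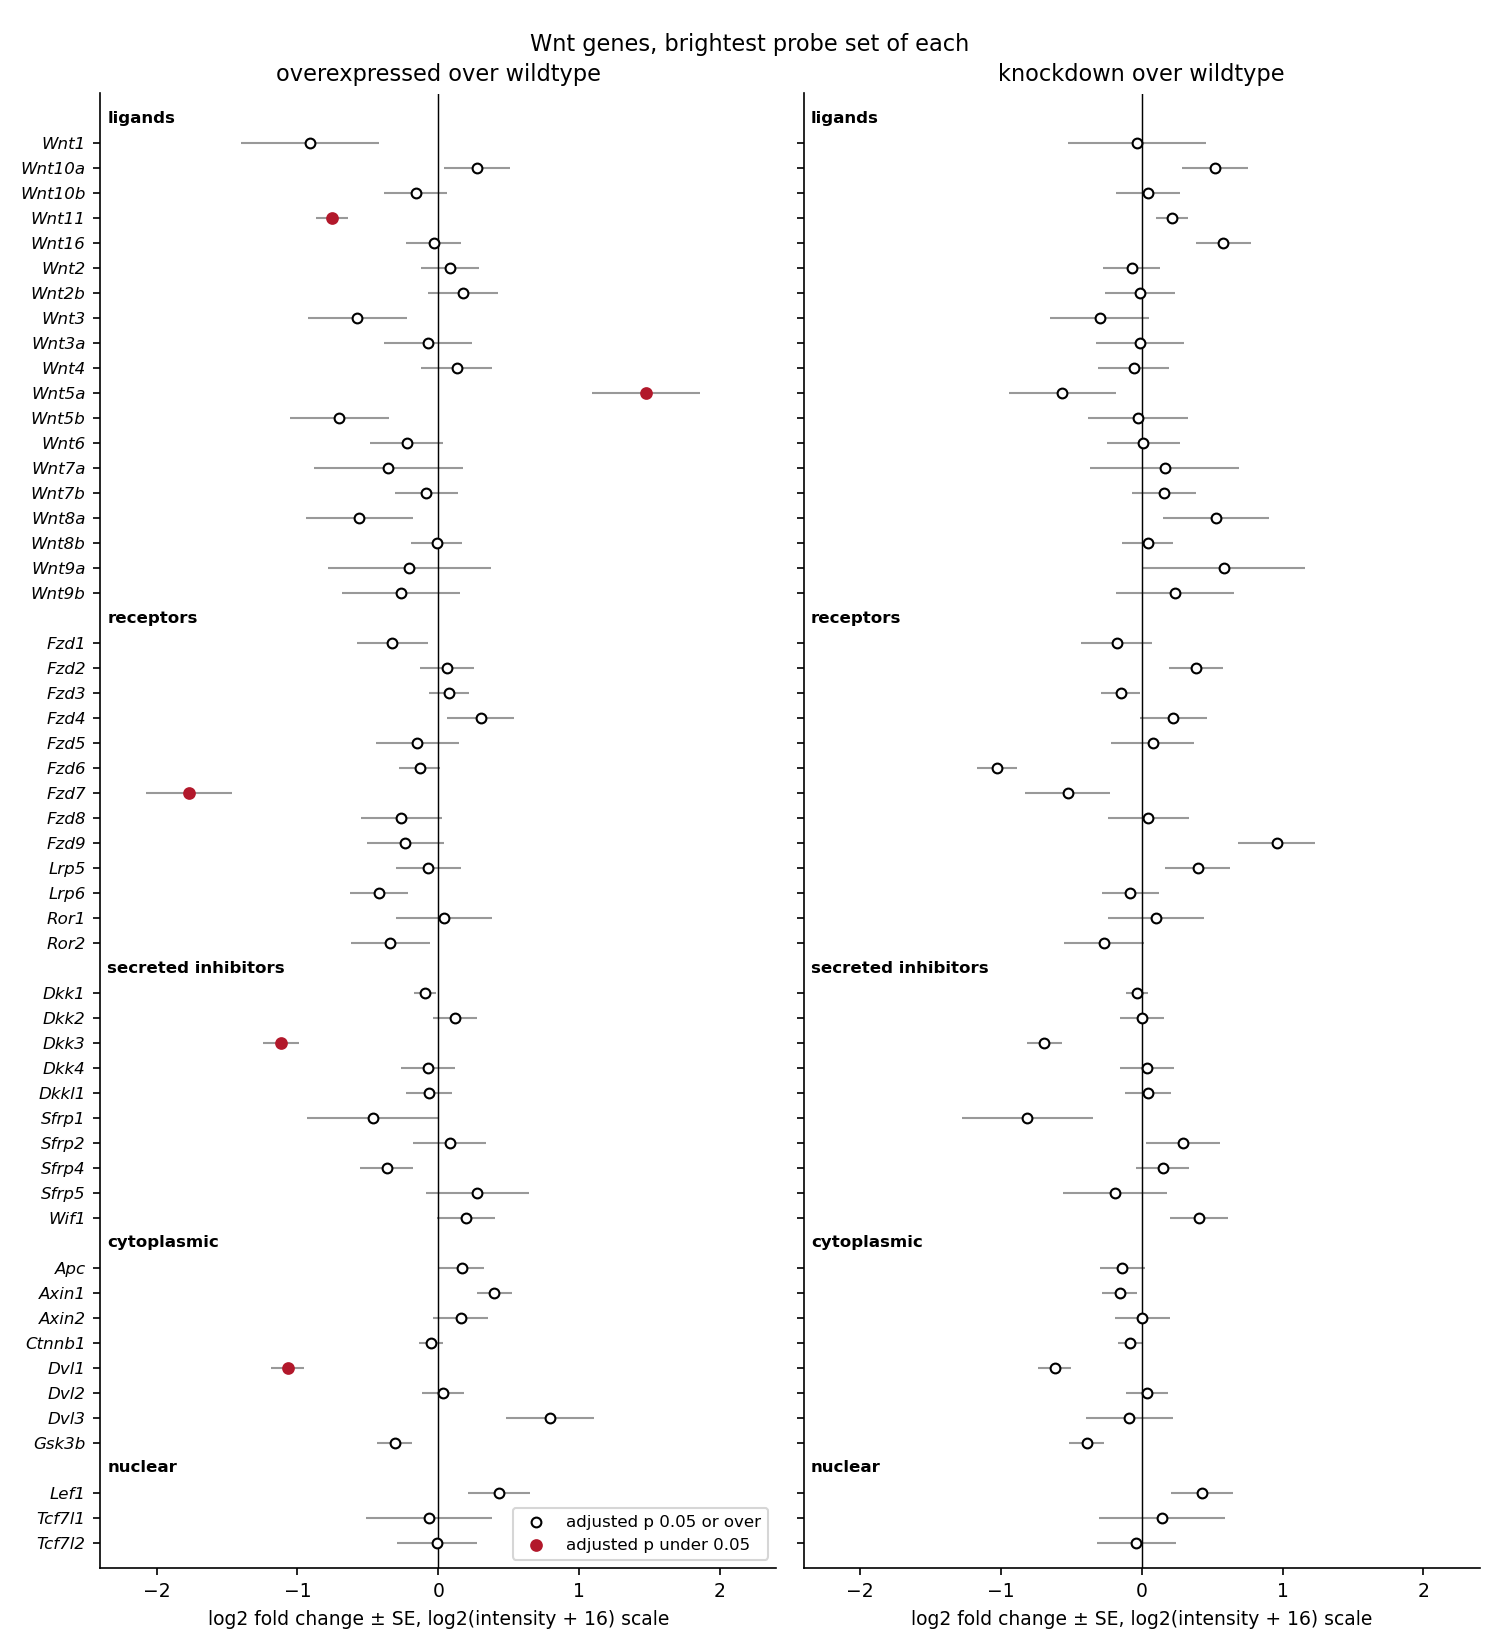
Log2 fold change ± SE on the log2(intensity + 16) scale for the brightest probe set of each of the 53 Wnt genes, grouped by role, for overexpressing over wildtype (left) and knockdown over wildtype (right), which share the 3 wildtype arrays. Filled points passed at an adjusted p under 0.05. There are 5 on the left, Wnt11, Wnt5a, Fzd7, Dkk3 and Dvl1, and 0 on the right, where Fzd6 at -1.03 lies farthest from 0.

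In knockdown against wildtype cells 0 of 82 Wnt probe sets passed (limma, Benjamini-Hochberg), against 0.0133% of all probe sets, which is 3 of 22626. At an unadjusted p under 0.05 there were 9 Wnt probe sets, 11% of the members against 10.9% of all probe sets. The median log2 fold change was 0.003 over the Wnt probe sets and 0.03 over all. The Wnt median had no stable sign: it was -0.05 with quantile normalization or without wildtype A, and 0.06 without wildtype B or knockdown C. With so few calls on the whole array, the count says little of single Wnt genes, whose intervals are given above. Without wildtype array C, 3 Wnt probe sets passed, the brighter sets of Fzd6, Dkk3 and Dvl1, where 0.455% of all probe sets passed.

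Between overexpressing and knockdown cells 9 of 82 Wnt probe sets of 8 genes passed, 11% against 7.57% of all probe sets. There were 3 higher in overexpressing cells (3.66%, against 3.43% of all), those of Wnt5a, Fzd6 and Axin1, and 6 lower (7.32%, against 4.14% of all), those of Wnt11, Fzd7, Fzd9, 1 of Dkk3 and both of Dvl1. Of these genes, Wnt5a, Fzd6, Fzd7 and Axin1 passed on 1 of their 2 probe sets each. The Wnt11 and Fzd6 calls were kept under all 19 other settings. The count was 2 without overexpressing array A, 5 without overexpressing C and 4 without knockdown C, and the 2 left without overexpressing A were Wnt11 and Fzd6. In each of these settings the share of all probe sets that passed was also below 7.57%. Whether the Wnt count fell more than that share was not tested. This comparison shares its overexpressing arrays with the one against wildtype.

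**Figure D3:**
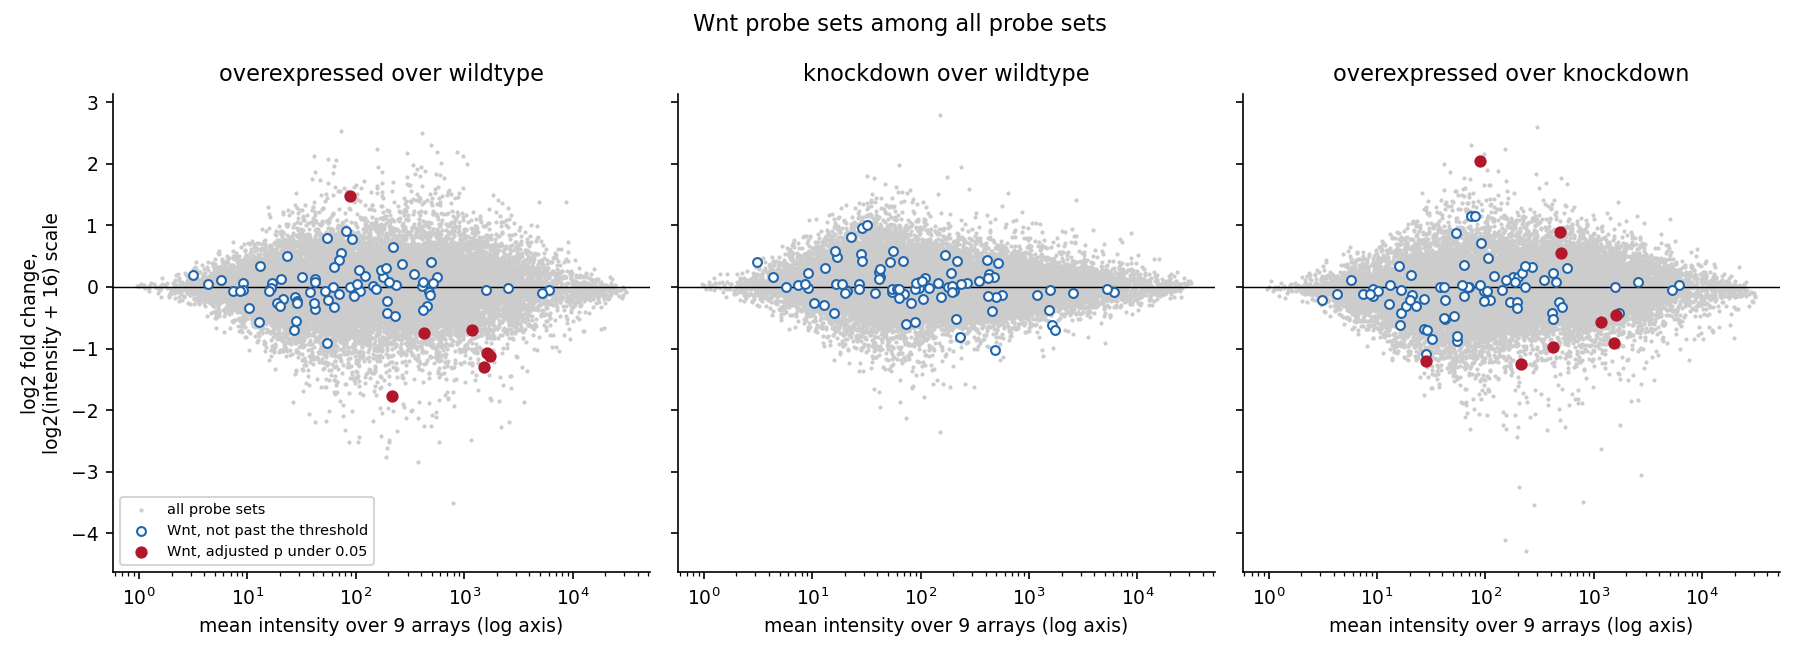
Log2 fold change on the log2(intensity + 16) scale (vertical axis) against mean intensity over 9 arrays (horizontal log axis) for all probe sets (grey) and the 82 Wnt probe sets (open blue, or red where the adjusted p was under 0.05), in 3 panels for overexpressing over wildtype, knockdown over wildtype and overexpressing over knockdown. The Wnt probe sets spread over mean intensities of 3.12 to 6084 among the grey points, with 7, 0 and 9 past the threshold.

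Levels and probe sets limited what could be seen. Of the 82 Wnt probe sets, 31 (37.8%), of 23 genes, had their brightest group above the array-wide median of 175.2, and 26 lay below 50 array units in every group. There were 11 such brighter sets among the 16 cytoplasmic ones, 9 among the 22 of receptors, 5 among the 14 of inhibitors, 6 among the 23 of ligands and 0 among the 7 of nuclear factors. For the 20 genes with several probe sets, all sets of a gene had the same sign in 13 for overexpressing over wildtype, 8 for knockdown over wildtype and 10 for overexpressing over knockdown. With the brightest probe set of each gene, 1 of 53 Wnt genes rose and 4 fell in overexpressing against wildtype cells, where 5.04% of all 12393 genes rose and 6.22% fell. Against knockdown cells the counts were 3 and 4, where 3.57% of all genes rose and 5.25% fell, and for knockdown over wildtype the count was 0 (limma, Benjamini-Hochberg, with 7 at an unadjusted p under 0.05), where 0.00807% of all genes passed. At that unadjusted p there were 1464 of all 12393 genes.

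Genes of the pathway outside the family were taken as 6 lists, again with the brightest probe set of each gene and read against the same shares of all genes. For knockdown over wildtype 0 of their 131 measured genes passed (limma, Benjamini-Hochberg), and 12 had an unadjusted p under 0.05, against 1464 of all 12393 genes. Nuclear beta-catenin partners had 5 of 25 measured genes higher and 0 lower in overexpressing than in wildtype cells, with a median log2 fold change of 0.15 against -0.03 over all genes. They were Hdac1, a histone deacetylase of co-repressor complexes (0.61 ± 0.09, limma adjusted p = 0.00233), Ctnnbip1, an inhibitor that keeps beta-catenin from Tcf factors (0.53 ± 0.11, limma adjusted p = 0.0158), and the ATPase gene Ruvbl2 (0.55 ± 0.13, limma adjusted p = 0.024). Tle3, a Groucho co-repressor, and Ruvbl1, the partner of Ruvbl2, complete the 5 at 0.53 ± 0.13 and 0.33 ± 0.09 and were chosen after their values were seen. Ruvbl1 and Ruvbl2 also serve chromatin remodelling and small nucleolar RNP assembly, and Hdac1 serves many other promoters. Ctnnbip1 passed against wildtype on 1 of its 2 probe sets, with the other of the same sign. Against knockdown, Hdac1 alone of these 5 genes passed (0.34 ± 0.09, limma adjusted p = 0.0441).

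Few of the commonly cited beta-catenin targets passed. Of 39 measured, 3 rose and 1 fell in overexpressing against wildtype cells, with a median of -0.05. Of all genes, 5.04% rose and 6.22% fell there, and against knockdown cells these shares were 3.57% and 5.25%. Id2, an inhibitor of bHLH factors, averaged 652.7 in overexpressing, 105.2 in knockdown and 133.9 in wildtype cells, a log2 fold change of 2.18 ± 0.35 over wildtype (limma adjusted p = 0.00398). Id2 passed on 2 of its 3 probe sets, with all 3 of the same sign. Birc5, the mitotic survival gene survivin, rose by 1.09 ± 0.21 (limma adjusted p = 0.00894). Nrcam, a neuronal adhesion gene, averaged 581.5 in overexpressing, 1067 in knockdown and 1201 in wildtype cells and fell by 1.03 ± 0.12 on the log2 scale (limma adjusted p = 0.000806). Sox4, a progenitor transcription factor named after its values were seen, rose by 0.47 ± 0.11. Against knockdown cells 2 targets were higher, Id2 and Sox4 (2.60 and 0.40), and 3 lower, Nrcam (-0.87), Mycn, the neuroblastoma oncogene (-0.50 ± 0.11, limma adjusted p = 0.021, with 2 of its 3 probe sets past the threshold this way and 1 of the opposite sign), and, named after its values were seen, Ccn4 (-1.01 ± 0.24).

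Among 27 measured polarity and other non-canonical effectors, 2 rose and 3 fell in overexpressing against wildtype cells, with a median of 0.0003. The shares of all genes were 5.04% and 6.22% there, and 3.57% higher and 5.25% lower against knockdown cells. Camk2d, a calcium/calmodulin kinase subunit, averaged 316.8 in overexpressing, 619.5 in knockdown and 807.9 in wildtype cells and fell by 1.31 ± 0.16 on the log2 scale (limma adjusted p = 0.00102). Camk2b, another subunit of that kinase, fell by 0.92 ± 0.21 (limma adjusted p = 0.0193). Ankrd6, the Dishevelled-binding protein Diversin, fell by 0.75 ± 0.14 (limma adjusted p = 0.00805). Camk2d and Ankrd6 each passed on 1 of 2 probe sets, and both sets of each had the same sign. Scrib, a polarity scaffold, and Nfatc3, a calcium-responsive transcription factor, rose by 0.54 ± 0.14 and 0.66 ± 0.16 and were named after their values were seen. Against knockdown 2 were higher, Nfatc3 (0.88 ± 0.16, limma adjusted p = 0.00947) and the phospholipase gene Plcb4 (0.68 ± 0.14, limma adjusted p = 0.0167). The 3 lower were Camk2d (-0.94 ± 0.16) and, named after their values were seen, Ankrd6 (-0.66 ± 0.14) and the small GTPase gene Cdc42 (-0.29 ± 0.07). Nfatc3 and Camk2d passed here on 1 of 2 probe sets each and Plcb4 on both, with no set of the opposite sign.

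The remaining lists held few calls. For all genes the shares were 5.04% higher and 6.22% lower against wildtype, and 3.57% and 5.25% against knockdown cells. Of 12 other receptors and their turnover factors, with a list median of 0.07, 1 rose in overexpressing against wildtype cells. This was the Wnt-binding receptor Ryk (0.59 ± 0.13, limma adjusted p = 0.0174), on 1 of its 2 probe sets, with both of the same sign. Of 10 genes of ligand secretion and extracellular control, with a median of -0.39, 1 fell, Wls, the carrier that brings Wnt proteins to the cell surface (-0.74 ± 0.18, limma adjusted p = 0.0279). Wls passed on 1 of its 3 probe sets, with all 3 of the same sign. Porcn, which attaches the lipid to Wnt proteins, was lower in overexpressing than in knockdown cells (-0.73 ± 0.19, limma adjusted p = 0.0429). Of 22 other destruction complex and turnover genes, with a median of -0.08, 2 fell against wildtype, Dact1, which binds Dishevelled (-0.68 ± 0.15, limma adjusted p = 0.0166), and Frat2, which binds Gsk3 (-0.78 ± 0.18, limma adjusted p = 0.019). Against knockdown, Frat2 was lower (-0.73 ± 0.18) and Cul1, a ubiquitin ligase scaffold, higher (0.49 ± 0.12) in overexpressing cells.

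**Figure D4:**
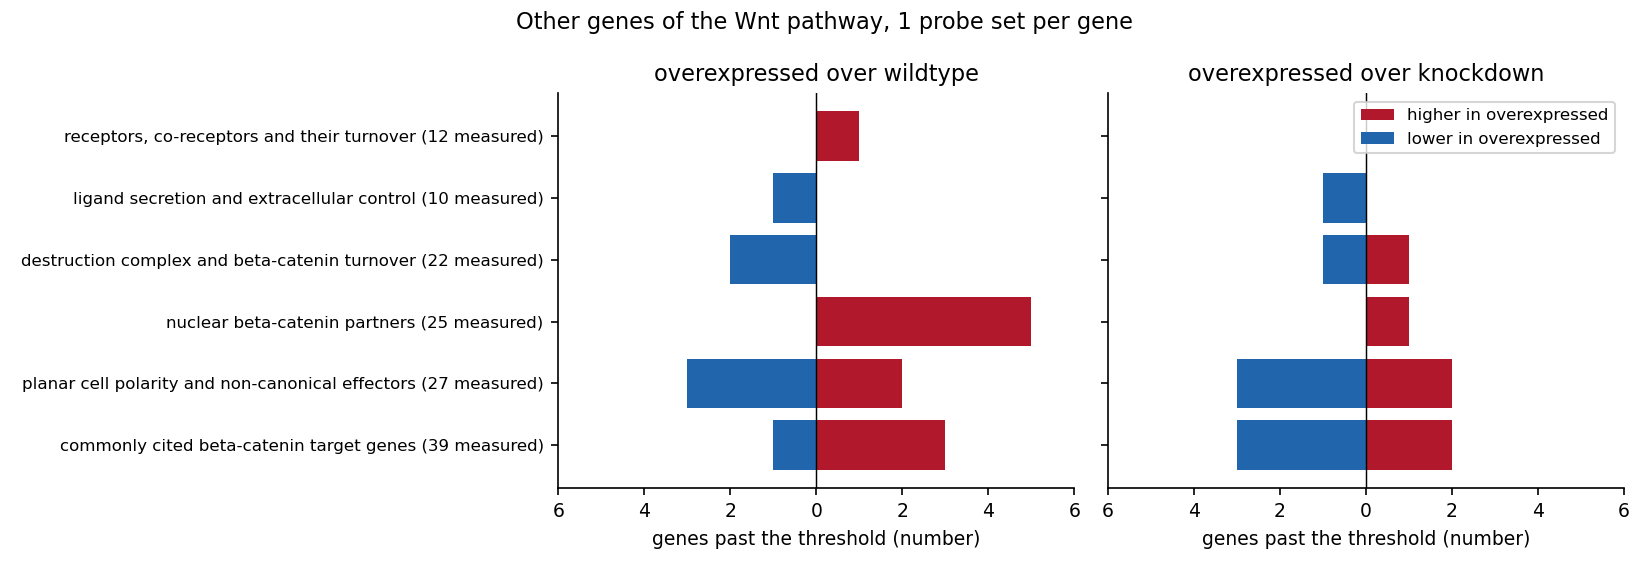
Number of genes past the threshold (horizontal axis) in the 6 lists of other pathway genes, higher (red, to the right) or lower (blue, to the left) in overexpressing cells, against wildtype (left panel) and knockdown cells (right panel), with the number of measured genes beside each list. Nuclear beta-catenin partners have 5 higher and 0 lower against wildtype.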

How the data were processed

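Total RNA on 9 arrays was analysed from the value table, which holds 1 linear intensity per probe set and array of a 1-colour array. These intensity values were deposited by the authors already scaled to a common level, as their nearly equal trimmed means show, and no source used here names the software, the background correction or the scaling. There are no detection calls, and with 3 arrays a group the precision is limited by their number. Of 22690 probe sets, 64 controls were left out. Probe sets were named by the platform annotation where it gave exactly 1 symbol (20380 of 22626), and all 82 Wnt probe sets matched a RefSeq gene identifier of GRCm38.p6, with 0 symbols updated.

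Array medians differed by a ratio of 1.13, under the limit of 1.2 for rescaling, so values were used as deposited and converted to log2(intensity + 16). limma 3.58.1 in R 4.3.3 (lmFit, eBayes with trend) was fitted to all 9 arrays with 1 mean per group, with Benjamini-Hochberg adjustment over 22626 probe sets in each comparison and a threshold of 0.05. The fit was tested on simulated data. The members, the other lists and the tests were chosen with earlier results of these data known.

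Given with all arrays were each Wnt probe set that passed in any comparison, per role and comparison the probe set with the smallest p among those not passing whose brightest group lay above the median of all probe sets, and the brightest of each role. Axin2, Dvl3, Lef1 and single probe sets of named genes were added after their values were seen. Of the other lists, up to 3 genes per comparison with the smallest p were named, and further ones are marked. Alternatives were pseudocounts of 1 and 64, no mean-variance trend, array weights, quantile normalization, a shared median for all arrays, leaving out the dimmest 40% of probe sets or those whose names mark shared or cross-hybridizing probes, an additional 1.5-fold limit, the letter as a block, and each array left out.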

Additional observations from a re-analysis of the deposited data

How the results depend on the processing

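In overexpressing against wildtype cells the count of 7 Wnt probe sets was 5 to 8 under the 19 alternatives, and 5 to 7 with an array left out. Of the 7 calls, 5 were kept under every alternative run, those of Wnt11, Fzd7, both Dkk3 sets and the brighter Dvl1 set. For knockdown against wildtype the count of 0 became 2 when the dimmest 40% of probe sets were left out, an alternative with fewer probe sets to adjust over, and 1 with array weights, and it was 0 to 3 with an array left out, the 3 being without wildtype C. Overexpressing against knockdown gave 9 calls, 4 with no mean-variance trend, 11 with quantile normalization and 7 with a common array median. The count was 2 to 10 with an array left out, and 2 of the 9 calls were kept under every alternative. In that comparison the share of all probe sets that passed also fell with no mean-variance trend. It fell as well with any single overexpressing or knockdown array left out. The cause of these changes was not tested. No named probe set changed sign past the threshold. Whether the letters pair the arrays is not stated. Deviations from the group means correlated at -0.01 to 0.10 between same-lettered arrays, with 1 of 9 pairs over 0.1, and at -0.12 to 0.10 between others. Such values cannot show whether same-lettered arrays were handled together. With the letter as a replicate block the counts were 7, 0 and 10, and the added call was the brighter Dkk3 set in overexpressing against knockdown cells (adjusted p = 0.0479). Quantile normalization and a common array median moved the median of all probe sets by less than 0.1 on the log2 scale. There are no detection calls, so the 26 Wnt probe sets under 50 array units in every group cannot be told from background.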
